A study of Mus musculus with 13 samples.

Results

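Prdx2, Gpx1, Txnrd2 and Fn3k are 4 genes of antioxidant defence or glycation repair, and they were followed across Klf1 genotypes in mouse fetal liver. They were taken by name from the called genes of the authors' deposited table, where they are 4 of 2036, together with KLF1 peaks within 10 kb of each locus. Because the table lists only genes that passed the authors' test, the calls of the members are a description and no test was run on them. The mRNA libraries came from livers of 3 Klf1 genotypes with 3 replicates each: MommeD45 with null (D45/-), null with null (-/-) and wildtype with null (+/-). All 3 thus carried a null allele and were taken at 14.5 days post coitum, and no wildtype liver was among them. KLF1 ChIP-seq was made in MommeD45 and in wildtype livers, also at 14.5 days post coitum, with 1 library per genotype from 2 pooled replicates. The sources used here do not give how many copies of the allele the MommeD45 ChIP livers carried. Each genotype has 1 abundance in FPKM, scaled by transcript length, in the authors' deposited table, so the spread between replicates is unknown, and globin transcripts were depleted before sequencing.

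The Klf1 product switches on genes of red cell precursors by binding CACCC-type DNA with its zinc fingers. A maturing red cell fills with hemoglobin, whose iron produces superoxide and hydrogen peroxide, and once the nucleus is gone the cell relies on enzymes made earlier. Prdx2 encodes peroxiredoxin 2, a very abundant thiol peroxidase of the red cell that is recharged by thioredoxin, and mice without it have hemolytic anemia. Gpx1 encodes the selenium-containing glutathione peroxidase of the cytosol. Txnrd2 encodes the mitochondrial thioredoxin reductase, also a selenoprotein, which keeps mitochondrial thioredoxin reduced. Fn3k encodes fructosamine-3-kinase, which phosphorylates sugars attached to lysines so that they fall off, and so repairs glycated proteins such as hemoglobin.

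Klf1 itself was at 398 FPKM in D45/-, 34.8 in -/- and 378 in +/- livers by the authors' deposited table, with a call for -/- below +/- (log2 ratio -3.44, q 0.00159, cuffdiff) and none for D45/- against +/-.

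The peroxidase genes were abundant in every genotype and lowest in -/- livers. Prdx2 was at 3208 FPKM in D45/-, 1245 in -/- and 4415 in +/- livers by the authors' deposited table. Gpx1 was at 3157 FPKM in D45/-, 1470 in -/- and 4523 in +/- livers in the same authors' deposited table. Among genes with a listed +/- value these were the second and the first of 1846, so both transcripts stood above every other listed gene in +/- livers. In D45/- livers they ranked first (Prdx2) and second (Gpx1) of 1233 genes with a listed value, and in -/- livers they were at ranks 7 and 6 of 1994.

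Txnrd2 and Fn3k were far less abundant. Txnrd2 was at 36.7 FPKM in -/- and 93.9 in +/- livers by the authors' deposited table, which lists no D45/- value for it. Fn3k was at 5.27 FPKM in D45/-, 0.376 in -/- and 52.4 in +/- livers by the authors' deposited table. In +/- livers Fn3k was therefore at a level of the same order as Txnrd2 on the FPKM scale, while in -/- livers Fn3k was near the lower end of the table, at rank 1966 of 1994 listed values.

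**Figure D1:**
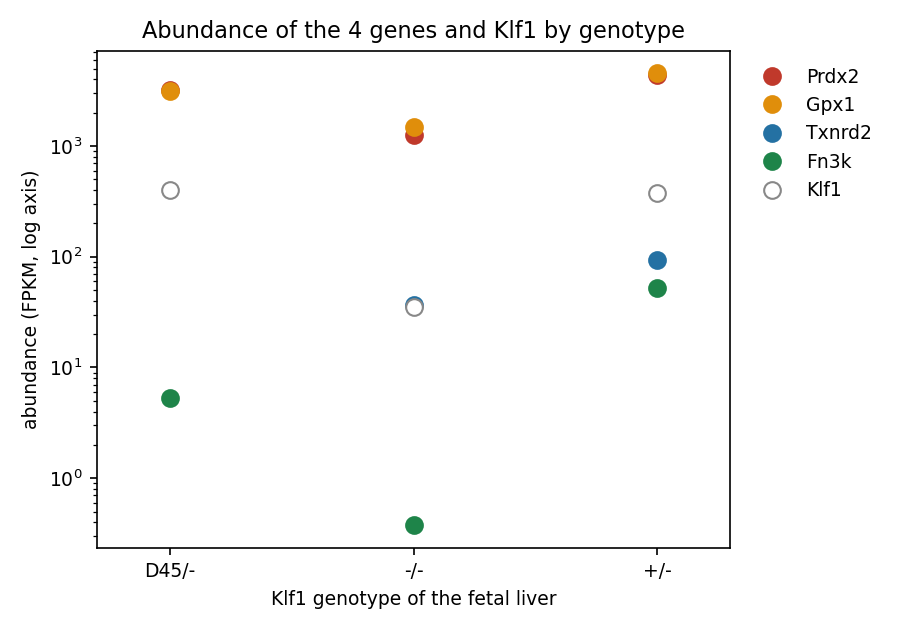
Abundance (FPKM, log axis) of Prdx2, Gpx1, Txnrd2, Fn3k and Klf1 in D45/-, -/- and +/- fetal livers, 1 point per gene and genotype from the authors' deposited table, with no error bars because the table holds none. Prdx2 and Gpx1 lie almost on top of each other between 1245 and 4523 FPKM, whereas Fn3k goes down to 0.376 FPKM in -/- livers.

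In the comparison of -/- with +/- livers, which sets no intact Klf1 allele against 1, all 4 genes were called lower in -/-. The background for this direction was 879 of 12965 assumed tests, or 6.78% of genes, beside 907 or 7.00% called higher, and nothing is read from the members' count against it because the members were chosen from these calls. Prdx2 had a log2 ratio of -1.83 (q 0.00159, cuffdiff) in the authors' deposited table, which left 28.2% of the +/- level. Gpx1 had a log2 ratio of -1.62 (q 0.00159, cuffdiff) in that authors' deposited table, with 32.5% of the +/- level left. Txnrd2 had the smallest change of the 4, a log2 ratio of -1.36 (q 0.0129, cuffdiff) in the authors' deposited table, with 39.1% left, and its p of 0.00065 was the largest of the 4. Fn3k had a log2 ratio of -7.12 (q 0.00159, cuffdiff) in the authors' deposited table, which is 0.719% of the +/- level and the 5th largest fall among the 879 genes. The median log2 ratio over the 877 genes called lower and not at 0 was -1.03, so each of the 4 genes lay below the median of the called genes. With 1 FPKM added to both values the log2 ratio of Fn3k was -5.28, and its -/- level of 0.376 FPKM is itself below the amount added.

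In the comparison of D45/- with +/- livers, in which MommeD45 takes the place of the intact allele, Fn3k alone of the 4 genes was called, and it was lower in D45/-. The background for this direction was 142 genes, or 1.10%, beside 86 or 0.663% called higher. Fn3k had a log2 ratio of -3.31 (q 0.00159, cuffdiff) in the authors' deposited table, at rank 7 by size of fall among the 142. Their median log2 ratio without the 1 gene at 0 was -1.12. Fn3k thus kept 10.1% of its +/- level with the MommeD45 allele. Prdx2 and Gpx1 were not called, and the levels in the authors' deposited table correspond to log2 ratios of -0.46 for Prdx2 and -0.52 for Gpx1, or 72.7% and 69.8% of the +/- level. No p-value is listed for these 2 ratios, and the missing calls do not show that D45/- and +/- livers were alike. For Txnrd2 no D45/- level is listed, so the size of any difference is unknown.

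In the comparison of D45/- with -/- livers, Fn3k, Prdx2 and Gpx1 were called higher in D45/- and Txnrd2 was not called. The background for this direction was 451 genes, or 3.48%, beside 634 or 4.89% called lower. Fn3k had a log2 ratio of 3.81 (q 0.00159, cuffdiff) in the authors' deposited table, 14.0-fold higher in D45/-, while with 1 FPKM added the log2 ratio was 2.19. Prdx2 had a log2 ratio of 1.37 (q 0.00159, cuffdiff) in the authors' deposited table, 2.58-fold higher in D45/-. Gpx1 had a log2 ratio of 1.10 (q 0.00505, cuffdiff) in the authors' deposited table, 2.15-fold higher in D45/-. The 3 comparisons share libraries pairwise, so these ratios are one set of levels seen from 3 sides and not separate evidence.

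The position of D45/- between the other genotypes differed among the genes. On the FPKM scale D45/- covered 62.0% of the way up to +/- from -/- for Prdx2, 55.3% for Gpx1 and 9.41% for Fn3k. On the log2 scale the same positions were 74.8%, 68.0% and 53.5%, so the distance of Fn3k from the peroxidase genes depends on the scale. For reference, 419 of the 879 genes called lower in -/- had values in all 3 genotypes and at least 5 FPKM in the highest. Their D45/- level was a median of 78.1% of the +/- level, with quartiles of 61.8% and 92.7%. Of these 419 genes, 4 had a smaller share of the +/- level left in D45/- than Fn3k, 146 had less than Gpx1 and 172 less than Prdx2. A D45/- value is listed only for genes called in a comparison with D45/-, so the 419 are a selected set and the ranks are descriptions.

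Genes with the pattern most like each member were found by the distance between 2 log2 ratios (D45/- over +/- and -/- over +/-) among 781 genes with values in all 3 genotypes. Nearest to Prdx2 were the calcium pump gene Atp2b4 (distance 0.052), the peptide hydrolase gene Apeh (0.055) and Spef1 (0.059). Nearest to Gpx1 were Acbd4 (distance 0.014) and Ammecr1 (0.051). Fn3k had no such close neighbours, with Nxpe2 at a distance of 0.82, Sowaha at 1.14 and Paqr6 at 1.49. These distances rest on ratios of low -/- levels with no amount added. The -/- levels were 0.376 FPKM for Fn3k, 0.825 for Nxpe2, 0.0641 for Sowaha and 0.166 for Paqr6. With 3 genotypes and no replicates, likeness over 2 ratios is weak evidence and nothing about shared function or control is read from it.

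KLF1 peaks lay within 10 kb of each of the 4 loci in wildtype livers, 5 in all, and within 10 kb of Gpx1 alone in MommeD45 livers. The peaks and their strengths are the authors' MACS2 values. The Prdx2 peak in wildtype (chr8:87494859-87495148, mm9) lay inside the locus, with its summit 1465 bases from the locus start, a pileup of 36 and a fold enrichment of 6.72. The stronger wildtype Gpx1 peak (chr9:108241288-108241588, mm9) spanned the start of the locus, with a pileup of 46 and a fold enrichment of 8.14. The weaker one (chr9:108243209-108243488, mm9) lay 536 bases beyond the locus end, at a fold enrichment of 4.27. The Txnrd2 peak in wildtype (chr16:18426601-18426860, mm9) had a pileup of 28 and the lowest fold enrichment of the 5, 4.18. The Fn3k peak in wildtype (chr11:121294790-121295065, mm9) lay 1202 bases before the lower coordinate of the locus, between Fn3krp and Fn3k, with a pileup of 36 and a fold enrichment of 5.90. Just outside the limit, a further wildtype peak of fold enrichment 4.90 lay 13516 bases from the Fn3k locus and overlapped Fn3krp.

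The only MommeD45 peak near the 4 genes was the one at the start of Gpx1 (chr9:108241339-108241587, mm9), with a pileup of 33 and a fold enrichment of 6.01. All 249 of its bases lay within the wildtype peak, and the summits were 17 bases apart. For the other 4 wildtype peaks, at Prdx2, Txnrd2, Fn3k and beyond Gpx1, no MommeD45 peak was listed. A missing MommeD45 peak says that none passed the caller in that 1 library, and not that KLF1 was absent. Fold enrichments of the 2 libraries have no replicate and their difference was not tested.

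**Figure D2:**
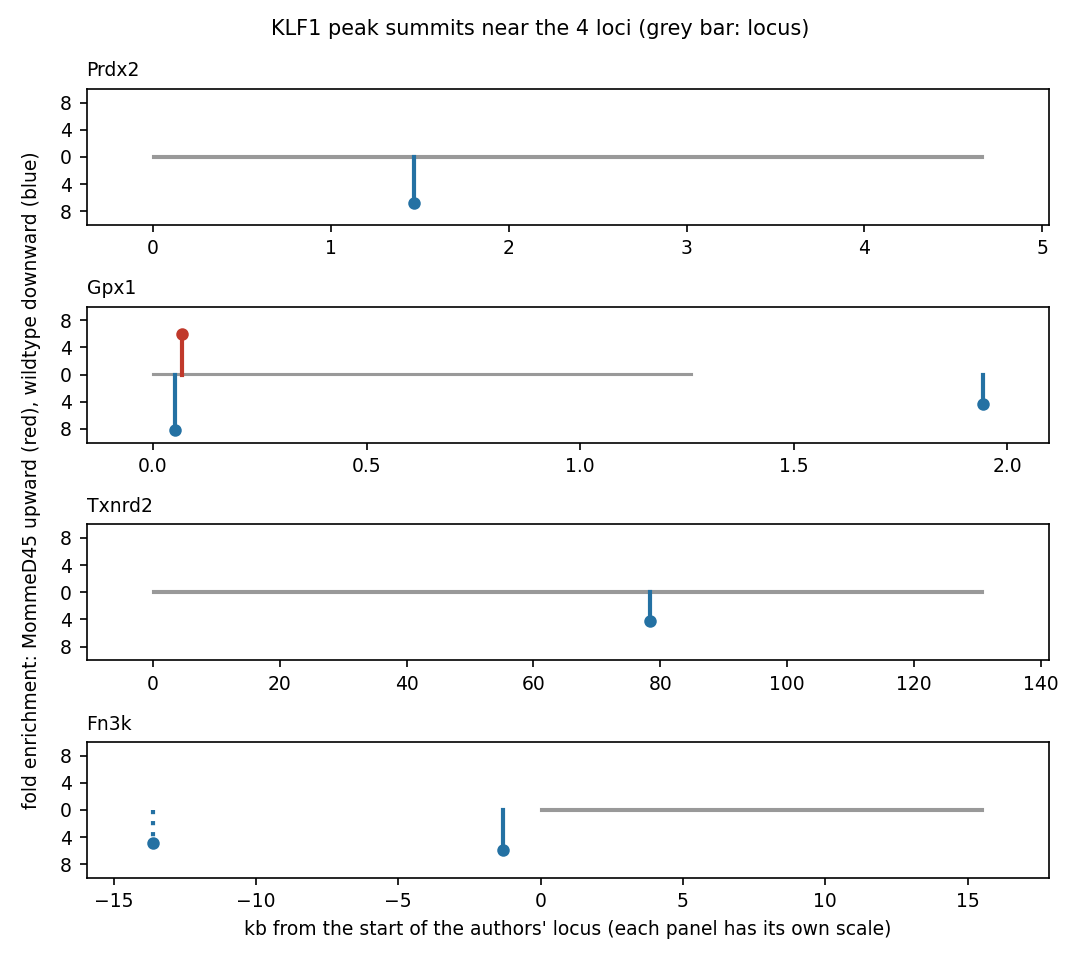
KLF1 peak summits near Prdx2, Gpx1, Txnrd2 and Fn3k, placed by distance in kb from the start of each locus (grey bar), with the fold enrichment upward for MommeD45 (red) and downward for wildtype (blue), and a dotted line for a peak beyond 10 kb. Gpx1 has summits of both libraries 17 bases apart at its start, with fold enrichments of 6.01 in MommeD45 and 8.14 in wildtype, while the other loci have wildtype summits alone.

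The strongest wildtype peaks overlapped the MommeD45 list most often, while the weaker ranges differed little. Of the 485 MommeD45 peaks, 362 (74.6%, exact 95% interval 70.5 to 78.5) shared at least 1 base with a wildtype peak. Of the 1203 wildtype peaks, 361 (30.01%, exact 95% interval 27.4 to 32.7, counting error only) shared at least 1 base with a MommeD45 peak. Among the 311 strongest peaks, with fold enrichments of 6.17 to 48.9, the share was 59.2% (53.5 to 64.7), and this range held the Gpx1 start peak, which was shared, and the Prdx2 peak, which was not. The range of 4.93 to 6.16, where the Fn3k peak lay, had a share of 29.9% (24.7 to 35.5). The range of 4.05 to 4.92, with the weaker Gpx1 peak and the Txnrd2 peak, had a share of 15.3% (11.4 to 19.9). The weakest range, 1.98 to 4.04, held no peak of the members and had a similar share, 14.6% (10.8 to 19.1). By rank in the wildtype list the Gpx1 start peak was 134th, Prdx2 229th, Fn3k 367th and Txnrd2 867th of 1203, and the MommeD45 Gpx1 peak was 115th of 485.

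**Figure D3:**
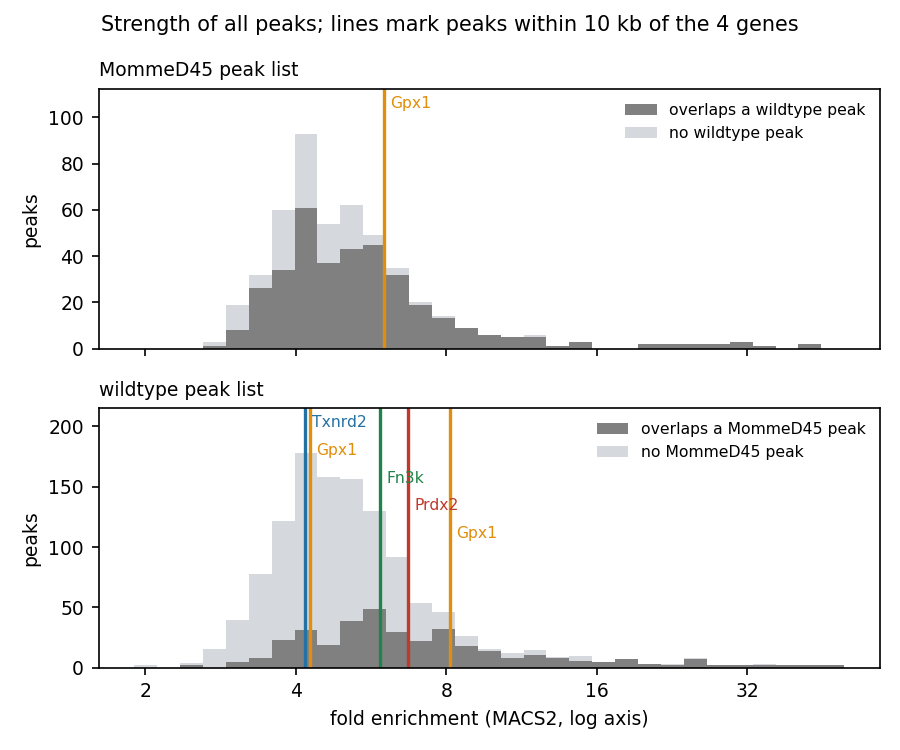
Number of peaks by fold enrichment (MACS2, log axis) in the MommeD45 list (485 peaks, top) and the wildtype list (1203 peaks, bottom), dark where a peak overlaps one of the other list, with lines at the peaks within 10 kb of the 4 genes. The 5 wildtype peaks run over 4.18 to 8.14, in the body of the distribution.

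Wildtype peaks were also counted near all genes called in -/- against +/-. A wildtype peak lay within 10 kb of 29.7% of the 879 genes called lower in -/- than in +/-, and of 4.30% of the 907 called higher. A MommeD45 peak lay within 10 kb of 13.5% and 2.09% of the same genes. The presence of peaks was part of how the 4 genes were described, and their 4 of 4 is not tested against these shares.

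Promoter windows of the members, from RefSeq on build GRCm38.p6, run 250 bases upstream to 50 bases downstream of the gene start and were matched for 3 of the 4 genes by symbol. Gpx1 is shown because the KLF1 peaks of both libraries span its start, and Prdx2 and Txnrd2 for comparison. Capitals mark matches to the CACCC-type string CCNCNCCC, searched on both strands, a string chosen after the windows had been read.
Gpx1, chr9:108338830-108339129, plus strand: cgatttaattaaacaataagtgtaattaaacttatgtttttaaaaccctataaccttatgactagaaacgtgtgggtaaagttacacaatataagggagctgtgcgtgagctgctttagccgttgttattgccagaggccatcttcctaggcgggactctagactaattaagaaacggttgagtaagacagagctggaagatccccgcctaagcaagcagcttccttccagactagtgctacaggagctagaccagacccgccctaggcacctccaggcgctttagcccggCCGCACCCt
Prdx2, chr8:84969372-84969671, plus strand: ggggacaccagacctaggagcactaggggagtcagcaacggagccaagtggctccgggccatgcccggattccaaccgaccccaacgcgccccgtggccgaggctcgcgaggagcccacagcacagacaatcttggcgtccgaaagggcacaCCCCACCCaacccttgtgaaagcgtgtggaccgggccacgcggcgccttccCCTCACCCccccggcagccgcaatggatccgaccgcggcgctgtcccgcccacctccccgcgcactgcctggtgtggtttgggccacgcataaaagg
Txnrd2, chr16:18426167-18426466, plus strand: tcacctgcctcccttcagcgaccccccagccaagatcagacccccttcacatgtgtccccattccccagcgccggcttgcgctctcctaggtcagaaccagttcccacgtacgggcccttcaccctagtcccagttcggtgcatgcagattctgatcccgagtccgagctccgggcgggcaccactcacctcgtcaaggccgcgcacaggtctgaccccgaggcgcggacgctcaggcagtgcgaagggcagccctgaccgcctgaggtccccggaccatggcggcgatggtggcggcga

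Gpx1 had 1 match, at positions 42 to 49 counted from 1 at the gene start, Prdx2 had 2 matches, the nearer at -47 to -40, and Txnrd2 had none. The authors' Gpx1 locus in mm9 has the same length as the RefSeq gene, 1263 bases, and the wildtype summit was at position 52 of that locus, the neighbourhood of the match if both annotations begin at the same base. CCNCNCCC occurs in 49.5% of all 32851 promoter windows of this length, so a match is common and is a description of the letters only. The narrower set CCACACCC, CCACGCCC, CCCCACCC and CCCCGCCC, whose matches all lie within those of CCNCNCCC, was found in Prdx2 at -98 to -91 and in neither of the other 2 windows, against 29.7% of all windows. None of the 3 windows held the GATA strings AGATAA or AGATAG nor TGATAA or TGATAG on either strand (29.8% of all windows), or TGACNNNGC, the core of the antioxidant response element (12.4% of all windows). The GC content was 47.0% for Gpx1, 68.7% for Prdx2 and 67.0% for Txnrd2, around a median of 52.7% for all windows. No sequence of the peaks themselves was read.

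Annotation limits the Txnrd2 row and, less, the Prdx2 row. The authors' Txnrd2 locus (chr16:18348275-18479166, mm9) is 130892 bases long, 2.49 times the RefSeq gene of 52657 bases. Whether reads from outside the RefSeq gene entered the Txnrd2 row cannot be told from the sources used here. The Txnrd2 summit lay 52439 bases before the end of that locus, which is close to the RefSeq length and would place it near the RefSeq start if both annotations end at the same base. RefSeq lists 2 Prdx2 pseudogenes, Prdx2-ps1 and Prdx2-ps2, so reads of Prdx2 may be shared with near-identical copies. Prdx2 (chr8:87493547-87498212, mm9) also lies 64353 bases from Klf1 on the same chromosome, so the Klf1 allele and the chromosome segment around it cannot be told apart as the source of a difference in Prdx2.

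Most markers of red cell precursors had the same calls as Prdx2 and Gpx1, whereas Fn3k was also called lower in D45/- than in +/-. Of 8 erythroid markers, 6 were called lower and 0 higher in -/- than in +/-, 7 were called higher in D45/- than in -/-, and none had a cuffdiff call in D45/- against +/-. Of all genes, 6.78% were called lower in -/- than in +/- and 3.48% higher in D45/- than in -/-. In D45/- against +/- 1.76% of all genes were called, and no call among 8 markers does not show an equal level. The summed level of the 6 with 3 values (Slc4a1, Epor, Tfrc, Alas2, Ermap and Trim10) was 4131 FPKM in D45/-, 1555 in -/- and 5014 in +/- livers by the authors' deposited table. The sum in -/- was 31.0% of that in +/-, beside 28.2% for Prdx2, 32.5% for Gpx1, 39.1% for Txnrd2 and 0.719% for Fn3k. In D45/- the sum was 82.4% of that in +/-, beside 72.7% for Prdx2, 69.8% for Gpx1 and 10.1% for Fn3k. Among the 6, single markers ran from 68.8% (Ermap) to 88.4% (Alas2) of the +/- level in D45/-. In -/- they ran from 19.1% (Ermap) to 39.6% (Alas2). Prdx2 and Gpx1 lay within both ranges and Fn3k below both. In D45/-, however, Ermap alone of the 6 markers was below Prdx2 and Gpx1, and the next marker, Epor, was at 77.4%. In whole liver, fewer red cell precursors and less RNA per precursor cannot be told apart, and the part of the markers in the members' ratios was not tested.

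Several lists of markers for other cells had members called higher in -/- than in +/-. This held for 7 of the 8 megakaryocyte markers, with the sum of 3 of them at 274 FPKM in D45/-, 389 in -/- and 158 in +/- livers by the authors' deposited table. All 5 granulocyte markers were called higher in -/- than in +/-, with the sum of 4 of them at 116 FPKM in D45/-, 266 in -/- and 99.5 in +/- livers by the authors' deposited table. Endothelial and stromal markers had 2 of 6 called higher, macrophage markers 1 of 7 (Marco) and hepatocyte markers 0 of 6 by cuffdiff, whose p-values for uncalled genes were not analysed here. Of all genes 7.00% were called in this direction. In D45/- against +/-, 3 megakaryocyte markers (Itgb3, Plek and Ppbp), Clec4f and Cps1 were called higher and Marco and Serpina1b lower. The sums over the 2 markers with 3 values in D45/-, -/- and +/- livers were 20.2, 39.5 and 19.0 FPKM for endothelial and stromal markers, 10.2, 28.0 and 16.5 for macrophage markers and 116, 251 and 213 for hepatocyte markers, by the authors' deposited table. The macrophage and hepatocyte sums each add 2 markers called in opposite directions in D45/- against +/-. Marco (14.9 FPKM) and Serpina1b (209.5 FPKM) made up most of these sums in +/- livers. No listed marker was at 0 in any genotype, and the part of these cells in the members' levels was not tested.

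The other antioxidant and repair genes were taken from 10 lists of 108 genes, chosen with earlier results of these data known. A RefSeq symbol or synonym matched 105 of the 108. Of the 104 that are not members, 10 were called lower and 10 higher in -/- than in +/-, or 19.2% called in either direction beside a background of 13.8%, and 83 were called in no comparison. With the members the counts were 14 lower and 10 higher. In D45/- against +/-, 3 of the 104 were lower and 1 higher, or 3.85% beside 1.76%, and in D45/- against -/- 11 were higher and 9 lower, or 19.2% beside 8.37%. The median log2 ratio of the 20 non-members called in -/- against +/- was -0.04, beside -1.03 and 1.22 for all genes called lower and higher. The lists therefore held genes moving in opposite directions. The 4 members all stood on the lower side, but they were chosen from these calls, so nothing is read from their shared direction.

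Fn3krp, Sod2 and Mgst3, of the glycation, superoxide and glutathione lists, were called lower in both D45/- and -/- than in +/-. In -/- against +/-, Sod3 of the superoxide list and Chac1 of the glutathione list were called higher. So were Gpx3 and Srxn1, of the peroxide removal and thioredoxin lists, which also held Prdx2, Gpx1 and Txnrd2. Fn3krp, which encodes a related kinase acting on other sugar adducts and lies 4185 bases from Fn3k, was at 8.51 FPKM in D45/-, 3.35 in -/- and 19.5 in +/- livers by the authors' deposited table. It was called lower in both D45/- and -/- than in +/- (log2 ratios -1.20 and -2.54, q 0.00159 for both, cuffdiff) in the authors' deposited table. These 2 neighbours were the called genes among the 11 of the glycation list, of which 10 matched a RefSeq symbol or synonym. Of all genes, 6.78% were called lower in -/- than in +/- and 1.10% in D45/- than in +/-. Fn3k was itself chosen from these calls. Sod2, the superoxide dismutase of mitochondria, was at 37.0 FPKM in D45/-, 14.9 in -/- and 67.1 in +/- livers by the authors' deposited table. Its log2 ratios to +/- were -0.86 in D45/- (q 0.00702, cuffdiff) and -2.17 in -/- (q 0.00159, cuffdiff) in the authors' deposited table. Mgst3, a microsomal glutathione transferase with peroxidase activity, was at 430 FPKM in D45/-, 55.0 in -/- and 829 in +/- livers by the authors' deposited table, and was called lower in both (q 0.00403 and 0.00159, cuffdiff). Fn3k, Fn3krp, Sod2 and Mgst3 were thus the genes of the lists called lower in D45/- than in +/-.

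Other genes of the lists were called lower in -/- than in +/- and had no call in D45/- against +/-. Gss, the last enzyme of glutathione synthesis, was at 54.6 FPKM in D45/-, 31.8 in -/- and 73.5 in +/- livers by the authors' deposited table. Glrx5, a mitochondrial glutaredoxin of iron-sulfur cluster assembly, was at 351 FPKM in D45/-, 179 in -/- and 397 in +/- livers by the authors' deposited table. Blvrb, a flavin and biliverdin reductase of the red cell, was at 1414 FPKM in D45/-, 572 in -/- and 2045 in +/- livers by the authors' deposited table. Cyb5r3, which reduces methemoglobin, was at 168 FPKM in D45/-, 85.8 in -/- and 164 in +/- livers by the authors' deposited table. The remaining members of this group were Chac2 and the transcription factor genes Nfe2 and Mafk, with log2 ratios of -1.11, -1.25 and -1.21 in -/- against +/- by the authors' deposited table.

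Of the 104 non-members, the 10 called higher in -/- than in +/- stand beside 7.00% of all genes called in that direction. The 13 oxidative stress regulators and targets moved both ways, with 3 higher (Hmox1, Maff and Osgin1) and 2 lower (Mafk and Nfe2). Srxn1, which encodes the enzyme that restores overoxidised peroxiredoxins such as the product of Prdx2, was at 38.2 FPKM in D45/-, 136 in -/- and 37.9 in +/- livers by the authors' deposited table (log2 ratio 1.84 for -/- over +/-, q 0.00159, cuffdiff). Hmox1, which degrades heme, was at 138 FPKM in D45/-, 247 in -/- and 123 in +/- livers by the authors' deposited table. Gpx3, which encodes the secreted glutathione peroxidase, was at 11.5 FPKM in D45/-, 32.1 in -/- and 12.3 in +/- livers by the authors' deposited table, opposite in direction to Gpx1. Sod3, the extracellular superoxide dismutase, was at 7.32 FPKM in D45/-, 16.5 in -/- and 7.43 in +/- livers by the authors' deposited table. The others called higher were Chac1, Maff, Me1, Hp, Osgin1 and Msrb3, with log2 ratios of 0.86 to 2.53 by the authors' deposited table. Gsta4, a glutathione transferase, was the gene of the lists called higher in D45/- than in +/-, at 138 FPKM in D45/-, 77.5 in -/- and 78.3 in +/- livers by the authors' deposited table (q 0.0164, cuffdiff), but that call did not hold when q was recomputed within the comparison (adjusted p = 0.0748).

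Gpx1 and Txnrd2, the selenoproteins among the members, were called lower in -/- than in +/-, and Gpx3, also a selenoprotein, was called higher. None of 8 genes of selenoprotein synthesis was called in any comparison by cuffdiff, beside 13.8% of all genes called in -/- against +/-, and p-values of uncalled genes were not analysed here. No other peroxiredoxin was called, nor the genes of catalase (Cat), cytosolic superoxide dismutase (Sod1) or cytosolic thioredoxin reductase (Txnrd1), nor glucose-6-phosphate dehydrogenase (G6pdx), which supplies NADPH. For these genes the absence of a call does not show an equal level.

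**Figure D4:**
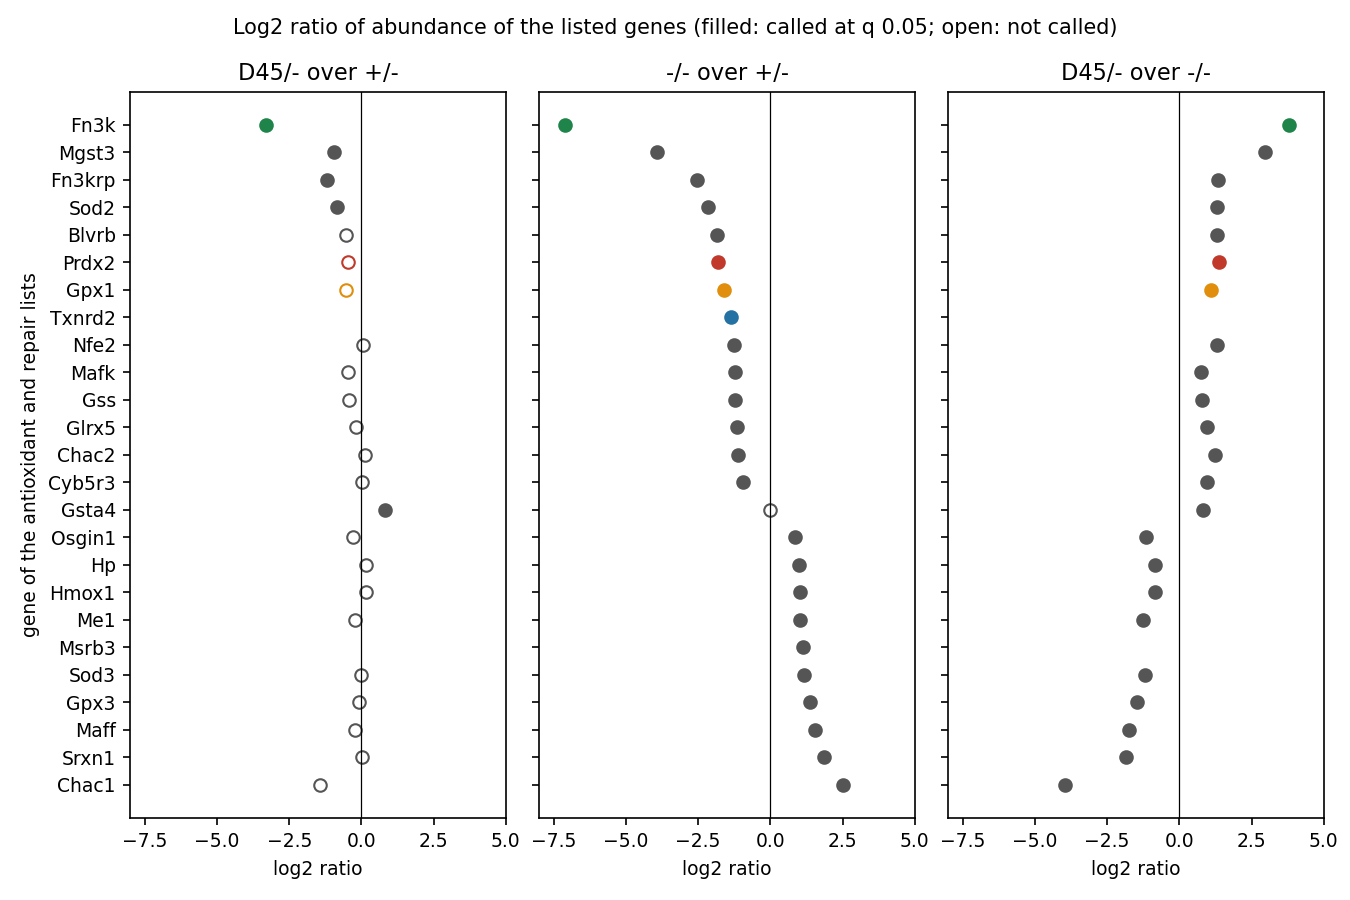
Log2 ratio of abundance for the called genes of the antioxidant and repair lists in D45/- over +/-, -/- over +/- and D45/- over -/-, 1 row per gene, filled where called at a q of 0.05 in the authors' deposited table and open where the ratio was computed from 2 listed levels without a call. Fn3k has the largest ratio to +/- in both genotypes (-3.31 in D45/- and -7.12 in -/-), and Srxn1 lies on the higher side in -/- at 1.84.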

How the data were processed

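The mRNA came from 3 Klf1 genotypes with 3 libraries each, and the chromatin from 4 libraries, each made from 2 pooled replicates, per the labels' protocols. TopHat2 2.0.10 and mm9 come from the submitters' processing notes, and cuffdiff from the design text. The authors' deposited table gives an abundance, taken to be FPKM from the cuffdiff column layout because its header names no unit. It also holds the authors' log2 ratio and the p-value and q-value of each call, and ratios were inverted where needed to put D45/- or -/- over its comparator. Bowtie2, Picard and MACS2 are named in the deposited description sheet. The deposited peak lists give a pileup signal, a fold enrichment and −log10 of q. Rows with the same interval were merged at the strongest summit.

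The deposited q-values correspond to 38893.9 to 38894.1 tests over the 3 comparisons, so 12965 tests per comparison were assumed. A gene absent from a comparison was either below the authors' threshold or not tested. Single-library values were not used here, the depth of the mRNA libraries is unknown, and no SD can stand beside a value. Nothing in the labels says whether the replicates were separate animals. Members, gene lists and marker lists were chosen with earlier results of these data known. Genes could be named if they were members, Klf1, called genes of the lists, or the 3 nearest to a member by 2 log2 ratios among genes with 3 values and at least 5 FPKM. Locus neighbours were named after their values were seen. Some genes met by these rules or lists are not reported here, and sums and counts of erythroid markers leave them out. The calculation of test numbers and intervals was tested on simulated data. Alternatives were a q under 0.01, q recomputed within a comparison, filters of 1 and 5 FPKM, a pseudocount of 1 FPKM, other distances to a locus, and other definitions of a shared peak. Loci were read as counting from 0, because 568 of 1915 matched genes then had exactly the RefSeq length, against 50 otherwise. Software was Python 3.11.15, numpy 2.4.6, scipy 1.17.1, pandas 2.3.3 and matplotlib 3.10.9.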

Additional observations from a re-analysis of the deposited data

How the results depend on the processing

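Calls of the 4 genes were the same in D45/- against +/- (1 lower) and in D45/- against -/- (3 higher) at a q under 0.01, with q recomputed within the comparison, and with at least 1 or 5 FPKM in the higher genotype. In -/- against +/- the 4 calls held under these alternatives except at a q under 0.01, where Txnrd2 was lost and 3 remained. Calls of the 108 listed genes stayed within 1.5 times under every one of these alternatives, with 4 to 5 against 5, 20 to 24 against 24 and 18 to 23 against 23 in the 3 comparisons. In D45/- against +/- the gene lost was Gsta4, at a q under 0.01 and also with q recomputed within the comparison. Adding 1 FPKM kept the sign of every ratio. The 5 wildtype peaks near the 4 genes became 3 when a peak had to overlap the locus (without the Fn3k peak and the weaker Gpx1 peak) and 3 at a fold enrichment of at least 5 (without the Txnrd2 peak and the weaker Gpx1 peak), and were 6 within 50 kb, and the cause of these counts is the construction of each alternative. The single MommeD45 peak and its overlap with wildtype held under each of the alternatives for peaks. No paired analysis was possible because the deposited table has 1 value per genotype and no replicate columns. For the same reason no replicate could be left out, and the depth of the mRNA libraries, which limits the low Fn3k level in -/- livers, is unknown.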

Other observations

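Wildtype KLF1 peaks also lay near other genes of the antioxidant and repair lists. Of the 10 non-members called lower in -/- than in +/-, 7 had a wildtype peak within 10 kb (Blvrb, Chac2, Cyb5r3, Fn3krp, Glrx5, Mafk and Nfe2) and 2 a MommeD45 peak (Cyb5r3 and Nfe2), beside 29.7% and 13.5% of all 879 genes called lower. Of the 10 called higher, 1 (Hmox1) had a wildtype peak and 0 a MommeD45 peak, beside 4.30% and 2.09% of all 907 genes called higher. Sod2 and Mgst3, which were lower in both D45/- and -/-, had none within 10 kb in either list. These counts carry no test.

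The listed genes nearest to Prdx2 on either side did not both move with it. Rnaseh2a, 3637 bases from Prdx2, was at 35.7 FPKM in -/- and 65.6 in +/- livers by the authors' deposited table (log2 ratio -0.88, q 0.0106, cuffdiff). Junb, 2596 bases from Prdx2 on the other side, was at 16.2 FPKM in D45/- and 38.0 in -/- livers by the authors' deposited table (log2 ratio -1.23, q 0.00159, cuffdiff), the opposite direction to Prdx2 in that comparison. The wildtype KLF1 peak inside the Prdx2 locus also lay within 10 kb of Rnaseh2a and of Junb. No D45/- level is listed for Rnaseh2a and no +/- level for Junb, so no comparison shows both. Both genes were named after their values were seen.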
